A study of Rattus norvegicus with 72 samples.

Results

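Sham-operated whole kidney was compared at 72 h and at 48 h after the operation, across all genes of the count table. The comparison used 8 of the 72 RNA-seq libraries of the study, 4 of sham kidneys at 72 h and 4 of sham kidneys at 48 h. These libraries were taken by their labels, while the comparison itself was chosen with earlier results of these data known. The study followed unilateral nephrectomy, the removal of 1 kidney, and its sham operation in adult male Sprague-Dawley rats over 24, 48 and 72 h, in whole kidney, in microdissected S1 proximal tubules and in glomeruli, with 4 libraries in each of 18 groups. All groups were on normal chow, and in the sham operation the pedicle of the right kidney was dissected free and the wound was closed with both kidneys left in place. The sham kidneys are the study's control at each time, and the comparison shows how far that control itself differed between 72 h and 48 h. Nephrectomy kidneys at 72 h and 48 h, S1 tubules and glomeruli of sham rats at the same times, and sham kidneys at 24 h are given beside it. Nothing in the labels ties the 4 libraries of a group to different rats; the p-values below therefore measure library-to-library spread, part of which may be technical. The sources used here do not give the hour of the day at which kidneys were taken.

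The sham libraries held 31106035 to 38469611 gene counts at 72 h and 40760964 to 41768285 at 48 h, so the 72 h libraries were the shallower ones. Mitochondrially encoded genes took 48.4% to 57.7% of the gene counts at 72 h and 47.7% to 63.6% at 48 h. Between 18614 and 18911 genes had a count at 72 h, and between 18396 and 19017 at 48 h. Counts of each pair of libraries within a group differed by far more than sampling noise, with the lowest chi-square per degree of freedom at 18.7, so no library was a copy of another. Levels below are CPM, read counts scaled to library size, with TMM scaling over the 24 whole kidney libraries, and they are not corrected for gene length, so they are compared between libraries and not between genes. Fold changes are log2 values, 72 h over 48 h, each with its standard error (SE) from edgeR's quasi-likelihood fit, and a gene is called when its Benjamini-Hochberg adjusted p over all genes tested is under 0.05. In whole kidney RNA, fewer cells of a type and less RNA per cell cannot be told apart.

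A pair of gene sets recurs below, and both are known to change with the hours of the day and with the state of the animal. Corticosterone, the main glucocorticoid of the rat, enters cells and binds the glucocorticoid receptor, which then binds DNA and raises transcription of targets such as Fkbp5, Tsc22d3 and Sgk1. The circadian clock is a feedback loop in which the activators Clock, Npas2 and Arntl (also called Bmal1) drive the Per and Cry repressors and the nuclear receptors Nr1d1 and Nr1d2, which in turn hold the activators down. In the kidney, clock and adrenal hormones are both known to act on transport genes.

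Of 15455 genes tested in whole kidney, 42 were called between sham 72 h and sham 48 h, which is 0.272% of them. Among these, 23 genes were lower at 72 h (0.149% of genes tested) and 19 were higher (0.123%). The 23 genes lower at 72 h included Tsc22d3, Sgk1, Zbtb16, Fkbp5, Sult1a1 and Nfkbia, which are known glucocorticoid targets, and the repressor Per2 of the clock. Among those with a mean of at least 1 CPM, the genes higher at 72 h were led by Stc2, a secreted glycoprotein, and Slc22a7, an organic anion transporter of the proximal tubule. The 4 libraries at 72 h lay wholly below the 4 at 48 h in all 23 genes called lower, and wholly above them in 18 of the 19 called higher. The calls rest on these same libraries, so this describes the called genes and is no separate test. Across all genes tested, 4.02% did not overlap in the lower direction and 3.53% in the higher direction. The median fold change over all genes was 0.005, and 2194 of the 15455 genes had an unadjusted p under 0.05.

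The number of calls depended strongly on single libraries. It was 25 without replicate 1 of 72 h, 2 without replicate 2, 8 without replicate 3 and 19 without replicate 4. Leaving out a 48 h library gave 7 calls without replicate 1, 63 without replicate 2, 22 without replicate 3 and 27 without replicate 4. Sgk1 and the main Tsc22d3 gene ID kept their calls in all 8 of these fits, and no other gene did. DESeq2 called 376 genes, among them all 42, and the fit of all 24 whole kidney libraries called 4.

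Known glucocorticoid targets were called lower at 72 h in 7 of the 24 gene IDs measured, against 0.149% of all genes tested, and none was called higher. The list was chosen with earlier results of these data known. Of 25 symbols on the list, 24 gene IDs were measured, with Tsc22d3 present under 2 IDs. The list's median fold change was -0.89, against 0.00 over all genes, and 20 of the 24 IDs lay below 0. The 72 h libraries lay wholly below the 48 h libraries in 11 of the 24 and wholly above them in 1. Over all genes tested the shares were 4.02% and 3.53%. The number of members called was 3 without replicate 1 of 48 h, 2 without replicate 2 or replicate 3 of 72 h, and 4 without replicate 4 of 72 h.

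Tsc22d3 encodes the glucocorticoid-induced leucine zipper protein. It stood at 31.0, 26.9, 33.2 and 35.6 CPM in the sham 72 h libraries, against 120, 111, 129 and 116 CPM in the sham 48 h libraries. Every 72 h library was thus far below every 48 h library, and neither group was widely spread. The mean was 31.7 ± 3.71 CPM at 72 h and 119 ± 7.46 CPM at 48 h (SD, n = 4 each), and the log2 fold change was -1.91 (SE 0.19; edgeR adjusted p = 0.000432). A second gene ID with the same symbol, at 1.29 to 1.56 CPM at 72 h and 2.75 to 3.21 CPM at 48 h, changed by -1.10 (SE 0.16; edgeR adjusted p = 0.0125); how reads were divided between the 2 IDs is uncertain.

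Sgk1 encodes a kinase that raises sodium transport and answers to both aldosterone and glucocorticoids. It stood at 72.0, 44.7, 47.3 and 60.7 CPM at 72 h, against 229, 148, 179 and 182 CPM at 48 h. The lowest 48 h library was still above the highest 72 h library. The log2 fold change was -1.71 (SE 0.19; edgeR adjusted p = 0.000943).

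Zbtb16, a zinc finger transcription factor, showed the largest change among the called genes that were lower at 72 h. It stood at 5.07, 2.07, 3.64 and 1.65 CPM at 72 h, against 47.1, 18.0, 35.5 and 15.5 CPM at 48 h. The 48 h libraries differed among themselves, with replicates 1 and 3 above replicates 2 and 4, but all were above the 72 h libraries. This order of the 48 h replicates was also seen in Fkbp5, Nfkbia, Per1 and Cebpb, but not in Sgk1 or Sult1a1. The log2 fold change of Zbtb16 was -3.23 (SE 0.56, edgeR adjusted p = 0.0249).

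Fkbp5 encodes a co-chaperone that lowers the affinity of the glucocorticoid receptor for its hormone. Its levels were 36.2, 22.6, 22.2 and 25.4 CPM at 72 h, against 74.4, 51.4, 94.5 and 63.3 CPM at 48 h, again with no overlap. Its log2 fold change was -1.41 (SE 0.23; edgeR adjusted p = 0.018). Sult1a1, a phenol sulfotransferase, stood at 18.5, 19.2, 16.4 and 30.9 CPM at 72 h, against 58.7, 59.8, 50.6 and 68.5 CPM at 48 h. It changed by -1.48 (SE 0.24; edgeR adjusted p = 0.0194), and replicate 4 was the highest library of both groups. Nfkbia, the inhibitor that holds NF-kappa-B in the cytoplasm, stood at 20.3 to 25.2 CPM at 72 h and 33.5 to 53.6 CPM at 48 h, a change of -0.85 (SE 0.17; edgeR adjusted p = 0.0454).

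**Figure D1:**
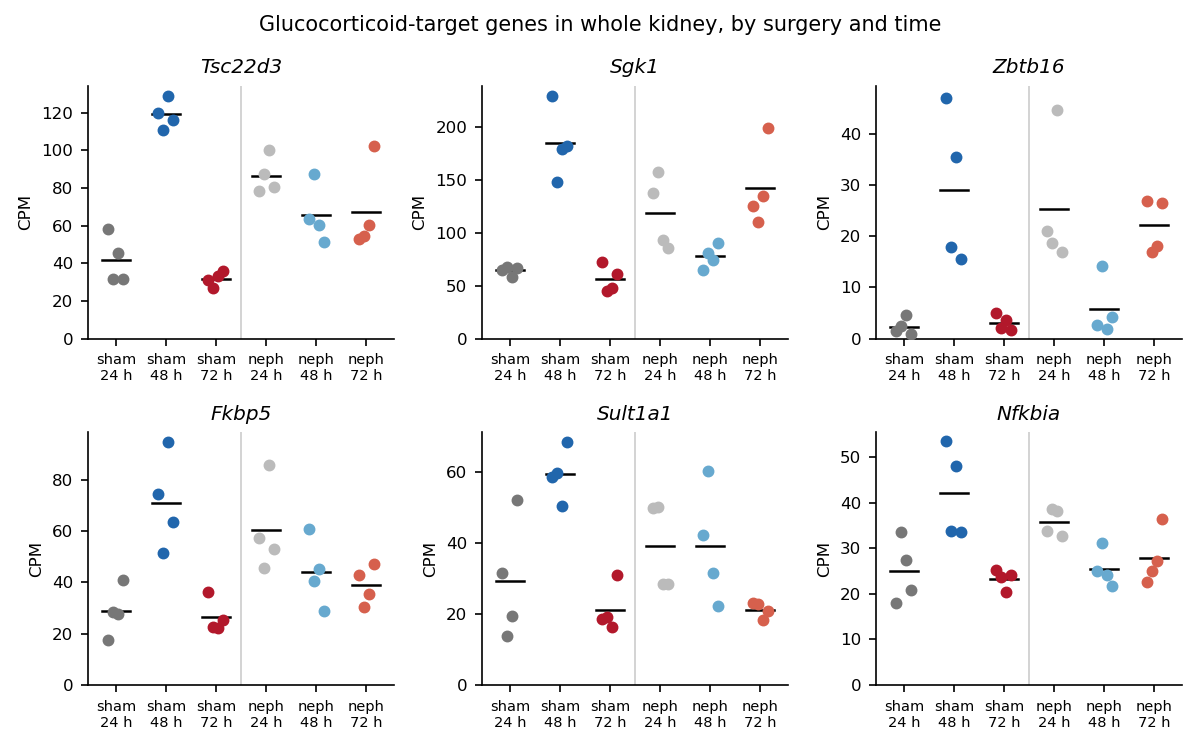
The 6 called glucocorticoid targets in whole kidney, as CPM (vertical axis, from 0) in each library (points) with the group mean (line), for sham (left of the grey line) and nephrectomy ("neph", right of it) at 24, 48 and 72 h. In sham kidneys the 48 h libraries are the high ones: Sgk1 lay at 148 to 229 CPM at 48 h and at 44.7 to 72.0 CPM at 72 h.

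The other 17 glucocorticoid targets did not pass the test. The most negative among them were Hif3a at -1.57 (SE 0.46), Errfi1, an inhibitor of the EGF receptor, at -1.26 (SE 0.29), the clock repressor Per1 at -1.13 (SE 0.33), the transcription factor Cebpb at -1.0 (SE 0.28), the mTOR inhibitor Ddit4 at -0.98 (SE 0.31) and Cebpd at -0.93 (SE 0.27), with edgeR adjusted p between 0.0823 and 0.176. Errfi1 stood at 102, 140, 163 and 112 CPM at 72 h, against 489, 230, 289 and 235 CPM at 48 h, and did not overlap. The phosphatase Dusp1 (-0.73, SE 0.20) and the transcription factor Klf9 (-0.65, SE 0.17) did not overlap either. Angptl4, an inhibitor of lipoprotein lipase, was at 0.78 (SE 0.29), with its 72 h libraries wholly above the 48 h libraries. Lcn2 at 0.47 (SE 0.65) and Arl4d at -0.26 (SE 0.23) were imprecise. Cebpb stood at 6.1 to 11 CPM at 72 h and 7.11 to 23.6 CPM at 48 h, with overlap. The remaining members, Rgs2, Ampd3, Fam107a, Cdkn1a, Pdk4 and Mt2A, lay between -0.21 and 0.12.

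**Figure D2:**
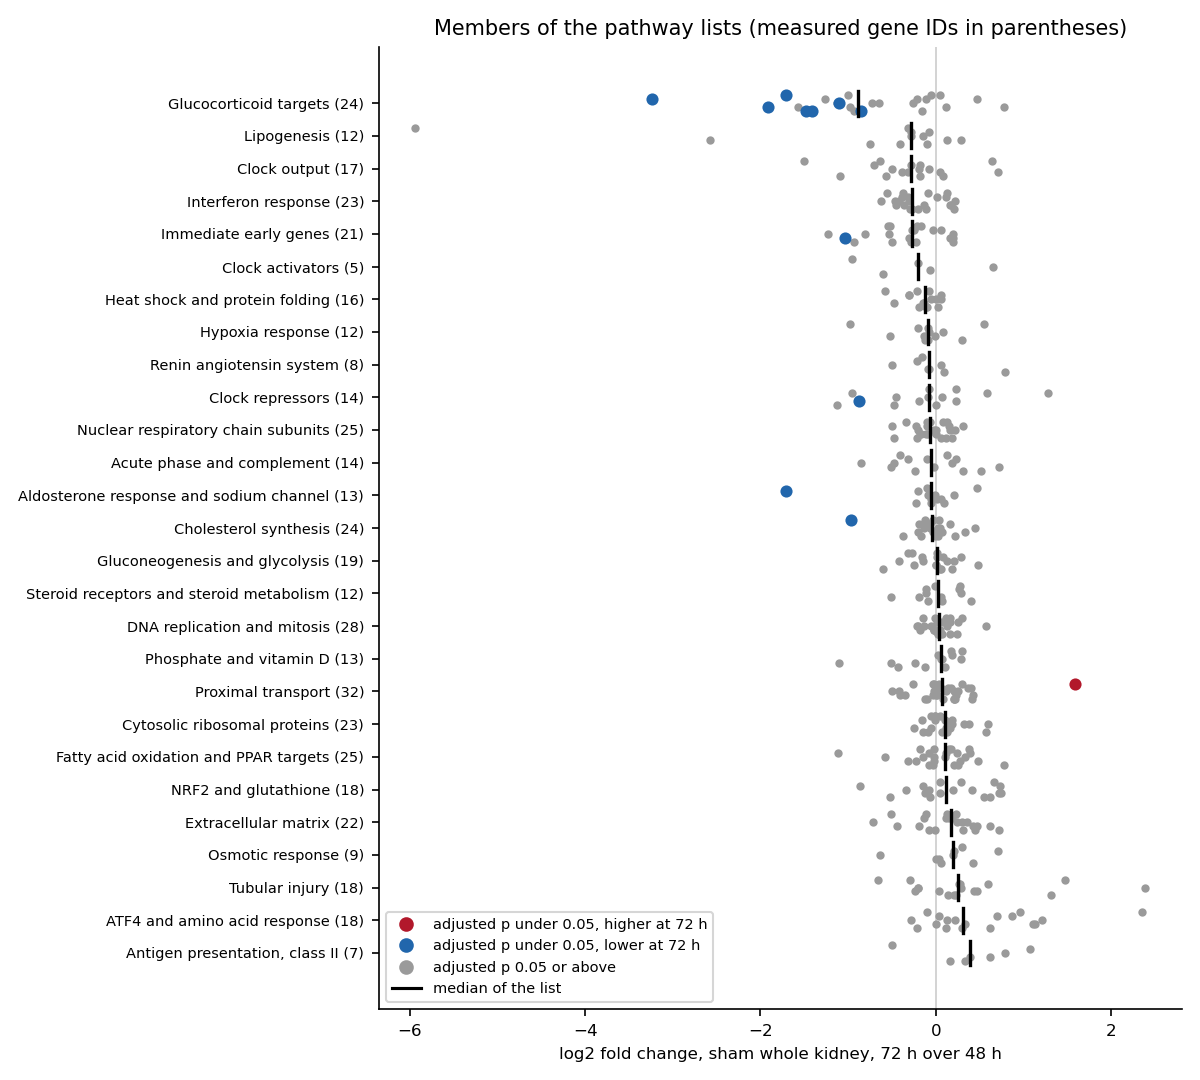
Log2 fold change (horizontal axis, sham whole kidney, 72 h over 48 h) of each measured member of the 27 pathway lists (rows, number of gene IDs in parentheses), with called members in colour and the list median as a black line. The glucocorticoid targets, in the top row, have 7 called members and a median of -0.89; 21 of the 27 lists have none.

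In sham kidneys at 24 h most of the called glucocorticoid targets stood below their 48 h levels. The 24 h sham libraries were uneven and were left out of the fit. Mitochondrially encoded genes took 36% to 80.6% of their gene counts. Their TMM factors ran from 0.452 to 1.57, against 0.89 to 1.24 in the 48 h sham libraries, so the 24 h levels are less comparable. Sgk1 was at 58.2 to 67.3 CPM at 24 h, 148 to 229 CPM at 48 h and 44.7 to 72.0 CPM at 72 h. Zbtb16 was at 0.792 to 4.67 CPM at 24 h, 15.5 to 47.1 CPM at 48 h and 1.65 to 5.07 CPM at 72 h. All 4 libraries of 24 h lay below all 4 of 48 h in 5 of the 7 glucocorticoid target IDs called (71.4%), in 9 of the 23 genes called lower at 72 h (39.1%) and in 2.23% of all genes tested. These shares rest on the same 48 h libraries that gave the calls, so they describe the 24 h libraries and are no separate test.

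Of the clock genes, only Per2 was called between the times by edgeR, while many differed among the 48 h libraries. Of 5 clock activators measured, 0 were called by edgeR, with 2 at an unadjusted p under 0.05 and 0 called by DESeq2 or limma voom. Of 14 clock repressors, Per2 was called and lower at 72 h by edgeR and DESeq2 but not by limma voom. Of 17 output genes 0 were called by edgeR, with 9 at an unadjusted p under 0.05, 3 called by DESeq2 and 2 by limma voom. Over all 36 clock genes measured, 17 had an unadjusted p under 0.05, against 2194 of 15455 over all genes. DESeq2 called 4 of the 36 and limma voom 2. The medians were -0.20 for the activators, -0.08 for the repressors and -0.28 for the output genes, against 0.00 over all genes.

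Per2, a core repressor that feeds back on the activators, stood at 33.8, 40.8, 39.2 and 38.8 CPM at 72 h, against 54.4, 72.6, 85.1 and 69.4 CPM at 48 h. The groups did not overlap, and the log2 fold change was -0.88 (SE 0.17; edgeR adjusted p = 0.0454). The call was lost when any 1 of the 8 libraries was left out, while the direction stayed. Of 10 other settings of the fit, 5 kept the call of Per2.

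The 48 h sham kidneys themselves fell apart in several clock genes, with replicates 2 and 4 on one side and replicates 1 and 3 on the other. Nr1d1, a repressor of Arntl, stood at 36.5, 33.3, 30.5 and 17.0 CPM in replicates 1 to 4 of 72 h, against 20.5, 1.94, 23.0 and 3.14 CPM in replicates 1 to 4 of 48 h. Arntl stood at 15.0, 7.31, 6.81 and 8.44 CPM at 72 h, against 7.82, 18.3, 7.62 and 23.4 CPM at 48 h. Replicates 2 and 4 of 48 h were therefore low in Nr1d1 and high in Arntl, and the 72 h libraries showed no such division. Per2 and Npas2 did not divide this way, with Npas2 at 2.43, 1.28, 1.75 and 2.43 CPM at 48 h. The share of all genes with this division was not counted.

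Dbp, a transcription factor driven by the clock, stood at 45.6, 70.6, 67 and 49.1 CPM at 72 h, against 46.7, 21.5, 58.8 and 22.1 CPM at 48 h. Ciart, a repressor of the activator complex, stood at 1.10, 1.56, 2.78 and 0.980 CPM at 72 h, against 2.99, 0.465, 5.18 and 0.343 CPM at 48 h. The repressor Cry1 went the other way, at 3.06, 3.56, 3.32 and 3.92 CPM at 72 h, against 2.55, 10.4, 4.74 and 9.31 CPM at 48 h. Nfil3, which competes with Dbp for its sites, stood at 1.93, 0.938, 1.18 and 1.63 CPM at 72 h, against 1.91, 6.69, 2.55 and 4.85 CPM at 48 h. In all 4 genes the 48 h replicates 2 and 4 formed one side and replicates 1 and 3 the other. None of them was called by edgeR, and DESeq2 called Nfil3 (adjusted p = 0.0172), with edgeR log2 fold changes of 0.64 (SE 0.31) for Dbp, -0.46 (SE 0.69) for Ciart, -0.96 (SE 0.33) for Cry1 and -1.51 (SE 0.42) for Nfil3.

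The other repressors lay at 1.28 (SE 0.56) for Nr1d1, 0.58 (SE 0.22) for Timeless, -0.48 (SE 0.19) for Bhlhe40, 0.23 for both Nr1d2 and Bhlhe41 (SE 0.23 and 0.33), and between -0.20 and 0.06 for Csnk1e, Cry2, Csnk1d and Per3. Among the activators, Npas2 was at 0.65 (SE 0.26) and Arntl at -0.61 (SE 0.35), while Rora and Clock were at -0.20 and -0.06. Among the output genes, the deubiquitinase Usp2 came nearest to a call at -1.09 (SE 0.23; edgeR adjusted p = 0.0505), with 10.7 to 15.4 CPM at 72 h and 22.4 to 35.1 CPM at 48 h. The taurine transporter Slc6a6 followed at 0.71 (SE 0.16; edgeR adjusted p = 0.0823), with no overlap. Tsku at -0.71, Tspan4 at -0.64, Hlf at -0.57, Lonrf3 at -0.51, Leo1 at -0.39, Wee1 at -0.32 and Nampt at -0.28 were further below 0, and Tef, Rbm3, Coq10b, Cirbp, Avpr2 and Avpr1a lay between -0.20 and 0.08.

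In Nr1d1, Arntl, Dbp, Ciart, Cry1 and Nfil3 the same division was seen in S1 tubules and glomeruli of sham rats at 48 h. It fell between the same replicate numbers. Clock and Nr1d2 did not divide this way in S1 tubules. In S1 tubules, Nr1d1 stood at 56.2, 104, 50.9 and 35.8 CPM in replicates 1 to 4 of 72 h, against 20.9, 1.32, 24.8 and 4.25 CPM in replicates 1 to 4 of 48 h. Arntl in S1 tubules stood at 3.58, 2.15, 1.31 and 1.21 CPM at 72 h, against 2.48, 12.2, 1.82 and 10.6 CPM at 48 h. In both genes replicates 2 and 4 of 48 h were again the ones apart.

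In glomeruli, Nr1d1 stood at 267, 167, 207 and 209 CPM at 72 h, against 172, 12.5, 210 and 15.3 CPM at 48 h. Dbp in glomeruli stood at 137, 106, 315 and 256 CPM at 72 h, against 93.5, 13.8, 124 and 15.2 CPM at 48 h. Replicates 2 and 4 of 48 h were thus low in all 3 tissues. The sources used here do not state that equal numbers in the 3 tissues mark 1 rat, and the part of the hour of collection in this division was not tested.

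**Figure D3:**
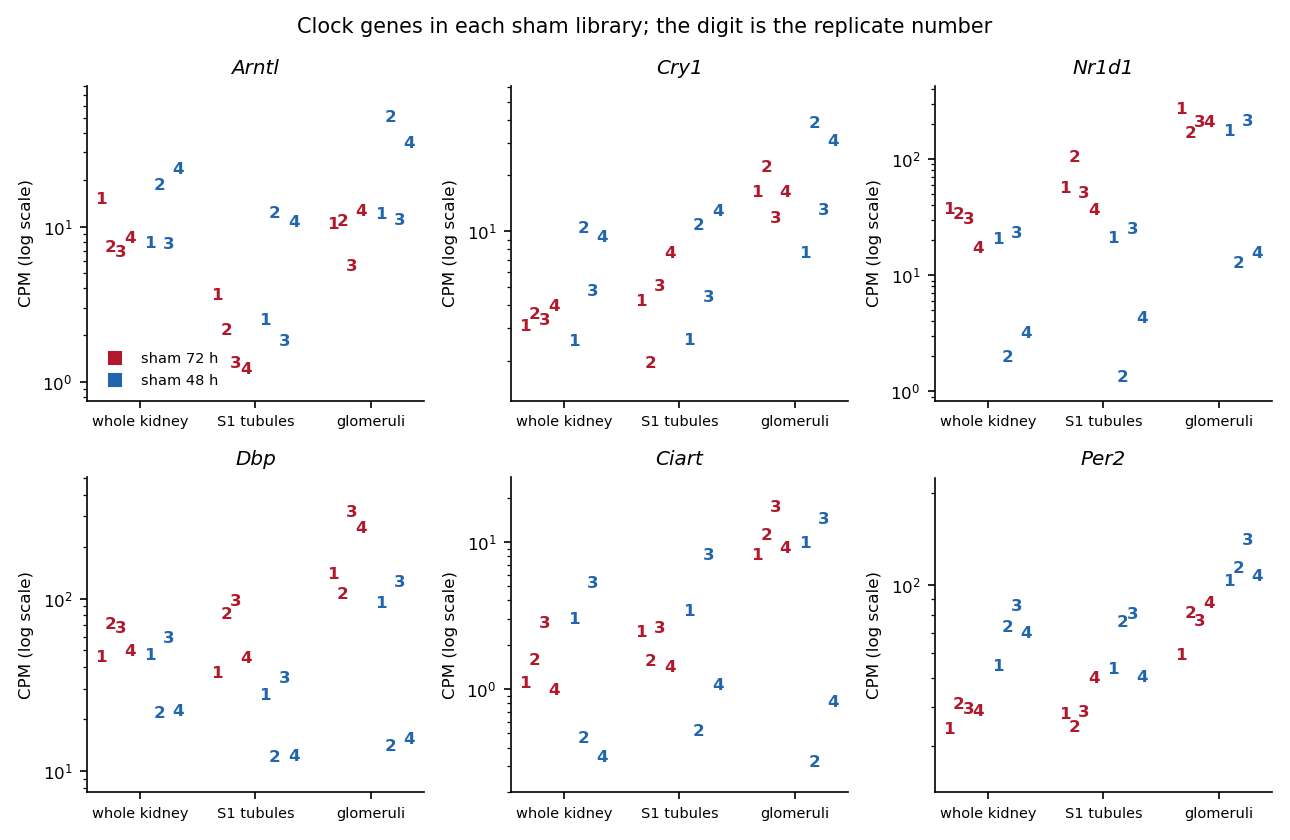
CPM (log scale) of 6 clock genes in each sham library of whole kidney, S1 tubules and glomeruli, with 72 h left of 48 h in each tissue and the replicate number as the symbol. Replicates 2 and 4 of 48 h are high in Arntl and Cry1 and low in Nr1d1, Dbp and Ciart in all 3 tissues, while every 72 h library is below every 48 h library in Per2 in each tissue.

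The promoter windows of 4 of these genes are shown, picked by hand from windows that held a motif match. Their genes were either called (Per2, Sult1a1) or split the 48 h libraries (Arntl, Ciart). Other genes of both kinds, such as Fkbp5, Sgk1 and Nr1d1, are not shown. RefSeq sequence of the rat build GRCr8 was used, from 250 bases before to 50 bases after the transcription start, and 53 of the 66 symbols of the clock and glucocorticoid lists had a window. The sources used here name no build for the count tables, so these coordinates belong to GRCr8 alone. Positions count back from the start, with -1 the base before it. Capitals mark matches on either strand to the motifs searched, which were the E-box CACGTG bound by the clock activators, its variant CACGTT, the D-box TTATGTAA bound by Dbp and Nfil3, the core site AGGTCA bound by Nr1d1, and the glucocorticoid receptor core site AGAACA. For each window the capitals show only the motifs named for it here.
Per2, chr9:99496944-99497243, minus strand, D-box at -192 and CACGTT at -62: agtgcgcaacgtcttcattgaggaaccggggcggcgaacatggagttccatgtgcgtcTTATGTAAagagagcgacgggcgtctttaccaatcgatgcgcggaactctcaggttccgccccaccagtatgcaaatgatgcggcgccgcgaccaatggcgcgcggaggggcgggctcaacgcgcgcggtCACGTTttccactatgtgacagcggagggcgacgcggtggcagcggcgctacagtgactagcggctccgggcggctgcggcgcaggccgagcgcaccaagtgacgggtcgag
Ciart, chr2:186112197-186112496, minus strand, CACGTG at -93, -35 and -21: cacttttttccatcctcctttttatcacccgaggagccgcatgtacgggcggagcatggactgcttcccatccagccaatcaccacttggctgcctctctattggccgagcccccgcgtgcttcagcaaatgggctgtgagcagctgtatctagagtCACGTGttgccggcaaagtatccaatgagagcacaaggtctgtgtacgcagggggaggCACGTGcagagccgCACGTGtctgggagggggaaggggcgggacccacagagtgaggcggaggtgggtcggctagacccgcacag
Arntl, chr1:176766078-176766377, plus strand, AGGTCA at -15: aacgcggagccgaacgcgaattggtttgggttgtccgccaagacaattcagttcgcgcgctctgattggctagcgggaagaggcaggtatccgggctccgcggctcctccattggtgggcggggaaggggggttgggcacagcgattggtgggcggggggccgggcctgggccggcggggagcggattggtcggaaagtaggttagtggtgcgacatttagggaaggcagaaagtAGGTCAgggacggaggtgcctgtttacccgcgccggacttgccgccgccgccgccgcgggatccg
Sult1a1, chr1:190706063-190706362, minus strand, AGAACA at -89: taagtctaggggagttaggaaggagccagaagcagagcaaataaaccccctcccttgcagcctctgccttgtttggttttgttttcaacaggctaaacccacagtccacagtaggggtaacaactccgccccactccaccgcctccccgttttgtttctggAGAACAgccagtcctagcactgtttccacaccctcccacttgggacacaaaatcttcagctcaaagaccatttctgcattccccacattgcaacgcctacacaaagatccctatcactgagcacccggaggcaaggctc

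Matches to these letters are common, and a match is a description, not a binding site. Among all 33469 RefSeq windows of 300 bases, CACGTG was present in 6.42%, CACGTT in 4.83%, TTATGTAA in 0.893%, AGGTCA in 16.2% and AGAACA in 20.7%. The full palindrome, AGAACA and TGTTCT spaced by 3 bases, was present in 0.0149% of all windows and in 0 of the 27 windows of the glucocorticoid targets. Of the 34 windows of the clock lists, 6 held CACGTG, and of the 9 windows of the called glucocorticoid targets 1 held AGAACA, that of Sult1a1.

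Beyond these lists, the genes that were lower at 72 h were of mixed roles. Fmo2, a flavin-containing monooxygenase, stood at 32.2, 39.6, 48.6 and 48.5 CPM at 72 h, against 93.4, 133, 94.2 and 102 CPM at 48 h, a change of -1.32 (SE 0.22; edgeR adjusted p = 0.0222). Btg2, an antiproliferative immediate early gene, stood at 11.7, 10.8, 10.4 and 10.9 CPM at 72 h, against 26.3, 16.8, 23.0 and 23.6 CPM at 48 h, a change of -1.03 (SE 0.15; edgeR adjusted p = 0.0125). The 72 h libraries of Btg2 were tightly grouped below the 48 h libraries. Fhl1, a LIM domain protein, changed by -0.95 (SE 0.13; edgeR adjusted p = 0.0103), with 15.8 to 22.5 CPM at 72 h and 36.6 to 39.7 CPM at 48 h. Idi1, isopentenyl diphosphate isomerase of the mevalonate pathway, changed by -0.96 (SE 0.15), with 10.2 to 13.1 CPM at 72 h and 18.9 to 28.4 CPM at 48 h. Zfp354a, a zinc finger repressor known from rat kidney as Kid-1, changed by -1.02 (SE 0.20), with 35.2 to 51.5 CPM at 72 h and 70.5 to 105 CPM at 48 h.

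Fibin at -1.69 (SE 0.34), Trhde, which cleaves thyrotropin-releasing hormone, at -1.26 (SE 0.22) and Chst3, a chondroitin sulfotransferase, at -1.07 (SE 0.20) were also lower, all 3 below 10 CPM in every sham library of the 2 times. The other called genes lower at 72 h were Prodh, Zhx3, Filip1l, Rapgef5, Gadd45a, Arfgap3 and Ythdc1, with log2 fold changes from -0.84 for Prodh, proline dehydrogenase, to -0.53 for Ythdc1, a nuclear RNA-binding protein.

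Among the genes that were higher at 72 h, Stc2 changed the most. It stood at 2.69, 8.30, 18.4 and 3.72 CPM at 72 h, against 0.490, 0.504, 1.21 and 1.40 CPM at 48 h. The groups did not overlap, although the 72 h libraries were widely spread. The log2 fold change was 3.22 (SE 0.64; edgeR adjusted p = 0.0454). Slc22a7 stood at 9.20, 11.4, 9.17 and 4.01 CPM at 72 h, against 1.57, 2.15, 4.52 and 3.06 CPM at 48 h, a change of 1.59 (SE 0.32; edgeR adjusted p = 0.0475). It was the called gene whose groups overlapped, through replicate 4 of 72 h and replicate 3 of 48 h.

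Apln, the ligand apelin of a vascular receptor, changed by 0.98 (SE 0.19), with 3.42 to 5.25 CPM at 72 h and 1.67 to 2.84 CPM at 48 h. Sod3, the extracellular superoxide dismutase, changed by 0.88 (SE 0.17), with 70.3 to 120 CPM at 72 h and 39.1 to 65.0 CPM at 48 h. Aoah, which removes acyl chains from lipopolysaccharide, changed by 0.67 (SE 0.11), with 10.1 to 11.4 CPM at 72 h and 6.65 to 6.88 CPM at 48 h. Lrrc75b changed by 0.75 (SE 0.12), with 35.7 to 39.0 CPM at 72 h and 18.2 to 26.1 CPM at 48 h. The edgeR adjusted p of these 4 genes was between 0.0168 and 0.0454.

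The lysophosphatidic acid receptor Lpar2 (0.84), the adhesion receptor Celsr2 (0.70), the transporters Abca7 (0.66) and Slc25a23 (0.64), the phosphodiesterase Pde5a (0.61) and the coreceptor Cd4 (0.60) were higher with standard errors of 0.11 to 0.15. The smaller called changes were those of Ids, Polr2a, Pcbp2, Pllp, Cers6 and Adnp, from 0.42 for Adnp to 0.52 for Ids, the lysosomal iduronate sulfatase, and for Polr2a, the largest subunit of RNA polymerase II. Igj, the joining chain of antibodies, was called at 1.86 (SE 0.35) from under 1 CPM in every library, and it is named here after its values were seen.

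**Figure D4:**
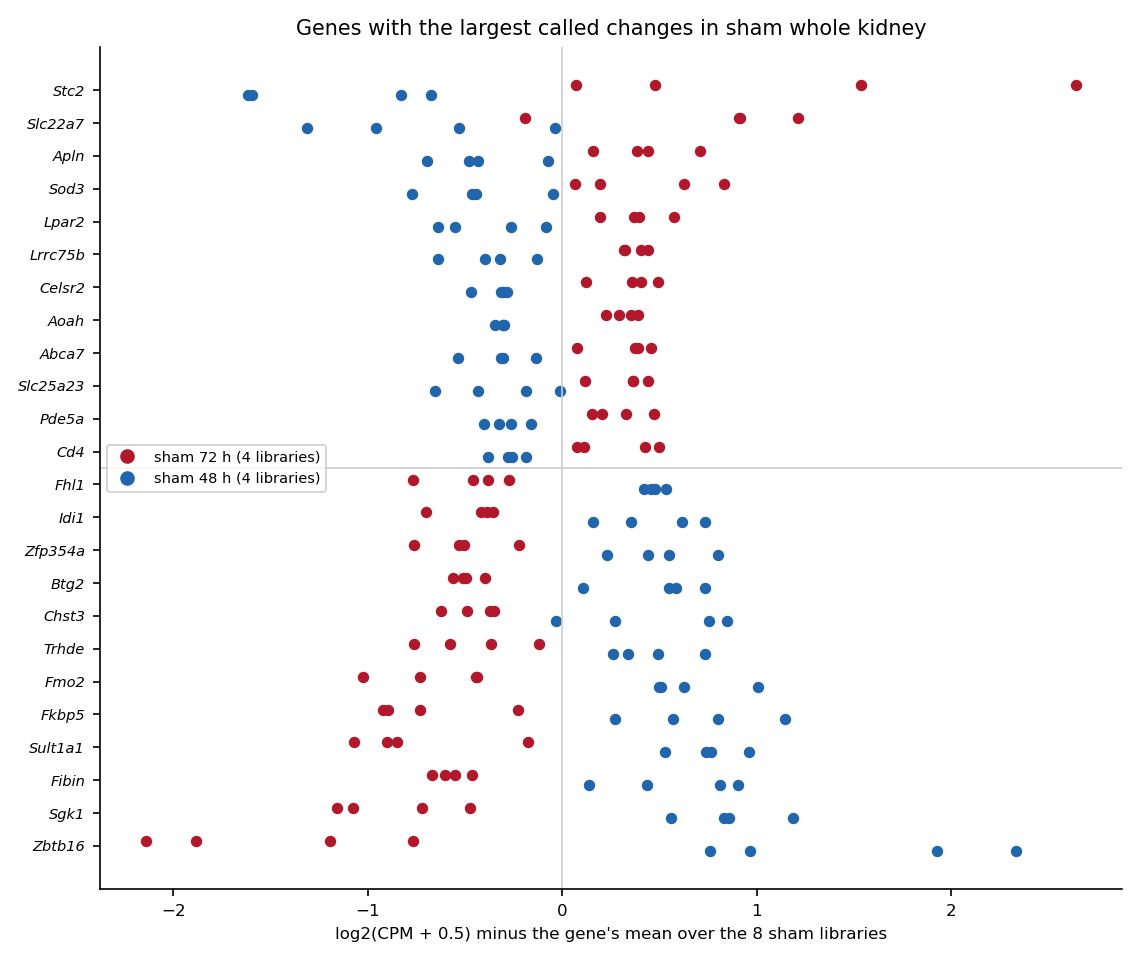
The 12 called genes with the most positive and the 12 with the most negative fold change (rows), as log2(CPM + 0.5) in each sham whole kidney library minus the gene's mean over the 8 libraries (horizontal axis), with 72 h above 48 h in each row. The groups are apart in every row but that of Slc22a7.

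Outside the glucocorticoid and clock lists, called members were scattered singly. The counts at an unadjusted p under 0.05 in these lists stand beside 2194 of 15455 over all genes tested. The immediate early genes held 1 called member of 21, Btg2, with a median of -0.27; Jun (-0.52, SE 0.12), Zfp36 (-0.93, SE 0.25) and Ctgf (-1.23, SE 0.35) did not pass. Ctgf stood at 17.9, 23.2, 20.4 and 23.5 CPM at 72 h, against 81.2, 22.5, 72.8 and 23.6 CPM at 48 h, so that replicates 1 and 3 of 48 h stood apart from all other libraries. The cholesterol synthesis list held 1 of 24, Idi1, with a median of -0.04 and Insig1 at -0.38 (SE 0.13). The aldosterone and sodium channel list held 1 of 13, Sgk1, with a median of -0.06. The proximal transport list held 1 of 32, Slc22a7, with a median of 0.07, Slc5a1 at 0.41 (SE 0.13) and Slc9a3 at -0.41 (SE 0.13). The 12 IDs of steroid receptors and steroid metabolism held 0 calls by edgeR, DESeq2 or limma voom and 2 at an unadjusted p under 0.05, with a median of 0.02; Hsd11b1, which regenerates active glucocorticoid, was at 0.28 (SE 0.13), and Hsd11b2, which inactivates it, at 0.40 (SE 0.13).

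Lipogenesis held 0 called of 12 by edgeR, with 4 at an unadjusted p under 0.05 and 2 called by DESeq2, and a median of -0.28. Scd1, stearoyl-CoA desaturase, stood at 3.64, 1.23, 1.22 and 1.43 CPM at 72 h, against 387, 47.7, 7.73 and 6.10 CPM at 48 h. All 4 libraries of 48 h were above those of 72 h, and replicate 1 of 48 h was far above the rest. The log2 fold change of -5.94 had an SE of 1.49 (edgeR adjusted p = 0.0959). Thrsp (-2.58, SE 0.66), Fasn (-0.75, SE 0.25) and Acaca (-0.41, SE 0.16) were also highest in replicate 1 of 48 h. The 8 adipocyte markers were all below 0, with a median of -0.66 and 0 called by edgeR (2 at an unadjusted p under 0.05); their summed level was 44.6 to 64.1 CPM at 72 h and 71.5 to 96.2 CPM at 48 h. The part of adhering fat in the lipogenic genes was not tested.

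The amino acid response genes had the second highest median of the 27 lists, 0.31, with 0 of 18 called by edgeR, 7 at an unadjusted p under 0.05 and 2 called by DESeq2. Asns, asparagine synthetase, was at 1.13 (SE 0.28; edgeR adjusted p = 0.0932), with 3.49 to 8.08 CPM at 72 h and 1.61 to 3.48 CPM at 48 h. Chac1 at 2.35 (SE 0.68) and Atf5 at 0.69 (SE 0.27) were highest in replicate 3 of 72 h, and Atf4 itself was at -0.28 (SE 0.09). Tubular injury genes had a median of 0.25, with 0 of 18 called by edgeR, 4 at an unadjusted p under 0.05 and 1 called by DESeq2. Havcr1, which encodes kidney injury molecule 1, stood at 1.93, 2.04, 9.60 and 2.03 CPM at 72 h, against 0.515, 0.776, 0.740 and 0.956 CPM at 48 h (2.39, SE 0.92), and Fgb and Fga were also highest in replicate 3 of 72 h.

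Fatty acid oxidation genes held 0 of 25 called by edgeR, 5 at an unadjusted p under 0.05 and 2 called by DESeq2, with Cyp4a8 at 0.48 (SE 0.12) and Acadm at -0.32 (SE 0.08), both without overlap. The glutathione and NRF2 list held 0 of 18 called by edgeR, 5 at an unadjusted p under 0.05 and 1 called by DESeq2, with Akr7a3 at 0.55 (SE 0.15) and Nqo1 at 0.74 (SE 0.25). In the matrix list, 0 of 22 were called by any of the 3 tools and 6 had an unadjusted p under 0.05, with Col4a1 at 0.44 (SE 0.16) and Col4a2 at 0.47 (SE 0.16). Class II antigen presentation had the highest median, 0.39, with 0 of 7 called by any of the 3 tools and 2 at an unadjusted p under 0.05; RT1-Bb at 1.07 (SE 0.42), RT1-Ba at 0.79 (SE 0.30) and Cd74 at 0.33 (SE 0.17) were the members named, and counts can be shared between RT1 copies. Nuclear respiratory chain genes had a median of -0.07 and 0 of 25 called by edgeR, 4 at an unadjusted p under 0.05 and 1 called by DESeq2, with Sdhb at -0.34 (SE 0.10) and Cox7a2 at -0.50 (SE 0.14). For the 28 genes of replication and mitosis the median was 0.03, with 0 called by any of the 3 tools and 0 at an unadjusted p under 0.05.

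The markers of podocytes, proximal tubule and thick limb were present at both times in the tissue labelled whole kidney. The 8 podocyte markers summed to 378 to 492 CPM at 72 h and 373 to 429 CPM at 48 h, and the 8 S1 to S2 proximal markers to 5630 to 7550 CPM at 72 h and 4430 to 6250 CPM at 48 h. The 6 thick limb markers summed to 2820 to 3640 CPM at 72 h and 2730 to 3920 CPM at 48 h. Of the 19 marker lists, 17 held no called member; the 2 others held Slc22a7, a marker of the S3 segment, and Cd4. The 4 lymphocyte markers measured summed to 11.4 to 15.7 CPM at 72 h and 8.63 to 9.71 CPM at 48 h, and the part of lymphocyte number in the Cd4 and Igj values was not tested. Adrenal cortex markers summed to at most 1.13 CPM at 72 h and 1.96 CPM at 48 h, and skeletal muscle markers to at most 0.857 CPM at 72 h and 1.37 CPM at 48 h.

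The same 2 times were next compared in nephrectomy kidneys, which share no library with the sham contrast. There 82 genes were called, 0.531% of those tested. Of the 42 genes called in sham, 30 (71.4%) had the same direction in nephrectomy, against 59.8% of all genes. The share was 16 of 19 (84.2%) for the genes higher at 72 h and 14 of 23 (60.9%) for those lower. In nephrectomy, 9 of the 42 were called too, all in the same direction, among them Fmo2 (-1.05, SE 0.22), Trhde (-1.09, SE 0.22), Fhl1 (-0.80, SE 0.13), Per2 (-1.45, SE 0.18) and Apln (1.30, SE 0.19).

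The glucocorticoid targets as a list had a median of 0.07 in nephrectomy kidneys, against -0.89 in sham. In nephrectomy 0 of 24 were called by edgeR, with 9 at an unadjusted p under 0.05, 4 called by DESeq2 and 4 by limma voom. Over all genes, 1804 of 15455 had an unadjusted p under 0.05 in nephrectomy. The difference between the sham change and the nephrectomy change was tested directly and was called in 9 genes, 0.0582% of those tested, all with the more negative change in sham. It was called by edgeR in 3 of the 24 glucocorticoid IDs (Sgk1, Zbtb16 and Tsc22d3), with 15 at an unadjusted p under 0.05. Over all genes, 1047 of 15455 had an unadjusted p under 0.05 for this difference. DESeq2 called 8 of the 24 and limma voom 3. Fkbp5, Sult1a1 and Nfkbia, called in sham, had no called difference by edgeR. Sgk1 in nephrectomy stood at 125, 110, 134 and 199 CPM at 72 h, against 64.5, 80.9, 74.5 and 90.5 CPM at 48 h, so that the order of the times was opposite to that in sham. The sham change minus the nephrectomy change was -2.59 (SE 0.27; edgeR adjusted p = 0.000634).

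Zbtb16 in nephrectomy stood at 27.0, 17.0, 18.1 and 26.6 CPM at 72 h, against 2.72, 14.2, 1.92 and 4.22 CPM at 48 h, and the difference of the changes was -5.20 (SE 0.77; edgeR adjusted p = 0.0118). Tsc22d3 in nephrectomy stood at 53.0, 54.3, 60.4 and 102 CPM at 72 h, against 63.6, 87.2, 60.5 and 51.0 CPM at 48 h, with overlap, and the difference of the changes was -1.95 (SE 0.27; edgeR adjusted p = 0.0118). Ipmk, an inositol polyphosphate kinase, was at -0.30 (SE 0.11) in sham and rose by 0.81 (SE 0.11; edgeR adjusted p = 0.00803) in nephrectomy, a difference of -1.10 (SE 0.16). The endothelial gene Ehd3 (-1.16, SE 0.17), Chst3 (-1.84, SE 0.28), Btg2 (-1.37, SE 0.21) and Rgcc (-1.6, SE 0.27) were the other named genes with a called difference, at edgeR adjusted p between 0.0118 and 0.0395. The 9 differences called rest in part on the libraries used: Rgcc kept its call in 5 of 16 fits that each left out 1 library, Btg2 in 11 and Chst3 in 14, while Sgk1, Tsc22d3, Zbtb16, Ehd3 and Ipmk kept theirs in all 16.

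In nephrectomy kidneys 8 of the 36 clock genes measured were called between the times by edgeR, against 0.531% of all genes. The difference between the sham change and the nephrectomy change was called in 0 of the 36 by edgeR, and in 8 by DESeq2 and 4 by limma voom. For this difference, 16 of the 36 had an unadjusted p under 0.05, against 1047 of 15455 over all genes. Arntl stood at 24.1, 22.5, 19.7 and 19.1 CPM at 72 h, against 3.58, 3.79, 5.57 and 8.6 CPM at 48 h in nephrectomy, a change of 2.01 (SE 0.37; edgeR adjusted p = 0.0271). Npas2 rose by 2.46 (SE 0.27; edgeR adjusted p = 0.00106) and Per3 changed by -1.13 (SE 0.17; edgeR adjusted p = 0.00819) in the same kidneys. The sham change minus the nephrectomy change was -2.62 (SE 0.51) for Arntl and 1.19 (SE 0.23) for Per3, both at an edgeR adjusted p of 0.0918, and -1.81 (SE 0.37; edgeR adjusted p = 0.121) for Npas2.

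**Figure D5:**
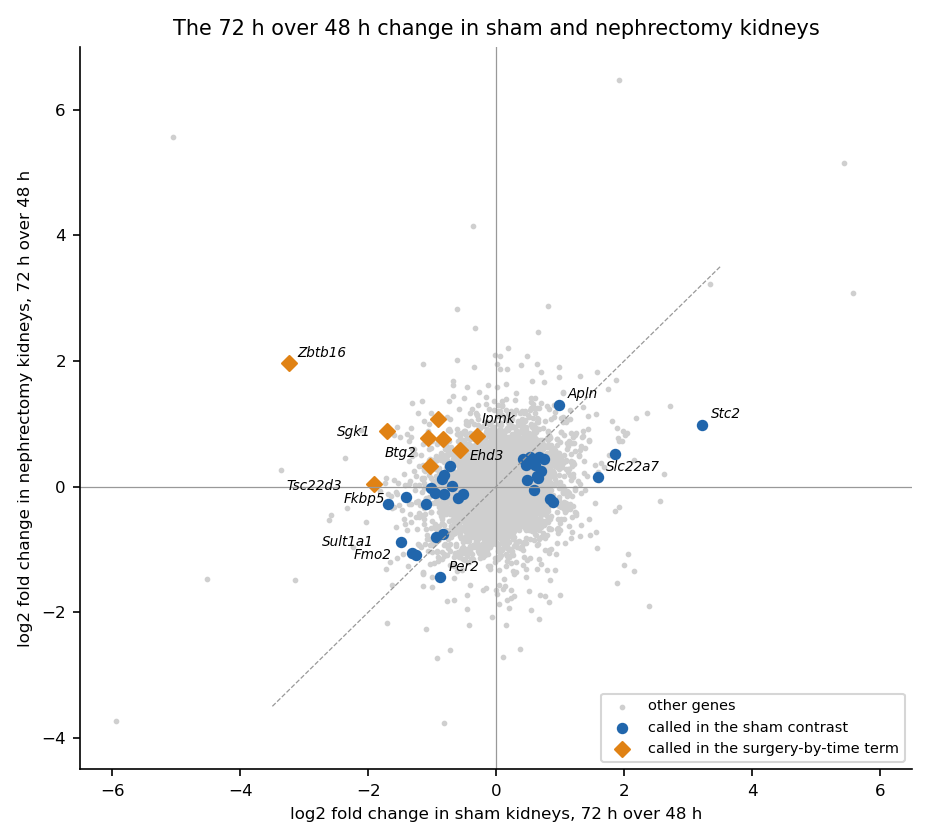
Log2 fold change, 72 h over 48 h, in sham kidneys (horizontal) against that in nephrectomy kidneys (vertical) for the 15455 genes tested, with the dashed line of equal change. Sgk1 and Zbtb16 lie at -1.71 and -3.23 in sham but above 0 in nephrectomy, while Fmo2 and Per2 lie below 0 in both.

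In the microdissected segments the spread between libraries was larger, with a biological coefficient of variation of 0.666 in S1 tubules and 0.598 in glomeruli, against 0.189 in whole kidney. In S1 tubules of sham rats, 0 of 15338 genes (0%) were called by edgeR, with 1165 at an unadjusted p under 0.05, 335 called by DESeq2 and 128 by limma voom. In glomeruli, 0 of 19784 genes (0%) were called by edgeR, with 3248 at an unadjusted p under 0.05, 698 called by DESeq2 and 4390 by limma voom. In the direction lower at 72 h, 3.51% of genes did not overlap in S1 tubules and 6.96% in glomeruli.

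Of the 42 genes called in whole kidney, 40 were measured in S1 tubules and 25 of these (62.5%) had the same direction there, against 54.4% of all genes. In glomeruli it was 23 of 40 (57.5%), against 54% of all genes. For the genes called lower the share was 15 of 23 (65.2%) in S1 tubules and 16 of 23 (69.6%) in glomeruli. For those called higher it was 10 of 17 (58.8%) in S1 tubules and 7 of 17 (41.2%) in glomeruli. Btg2, lower in whole kidney, stood the other way, at 1.35 (SE 0.79) in S1 tubules with overlap and at 1.52 (SE 0.60) in glomeruli without overlap, and Pcbp2, higher in whole kidney, was at -0.38 (SE 0.25) and -0.62 (SE 0.29) there. No gene passed the edgeR threshold in either segment.

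The glomeruli of the 2 times also differed in markers of another segment. The 6 thick limb markers summed to 11.6 to 45.9 CPM in the 72 h glomeruli and 427 to 920 CPM in the 48 h glomeruli, with Umod at 0 to 6.72 CPM at 72 h and 146 to 299 CPM at 48 h. The 8 podocyte markers summed to 11600 to 17600 CPM at 72 h and 10700 to 17400 CPM at 48 h. The part of thick limb RNA in the glomerular values was not tested.

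Sgk1 in S1 tubules stood at 156, 84.0, 168 and 139 CPM at 72 h, against 778, 344, 410 and 293 CPM at 48 h, a log2 fold change of -1.74 (SE 0.48; edgeR adjusted p = 0.231). In glomeruli Sgk1 stood at 582 to 1410 CPM at 72 h and 635 to 929 CPM at 48 h, at 0.19 (SE 0.33), so the groups overlapped there. Whether the Sgk1 change differed between the tissues was not tested.

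Fkbp5 stood at 12.9 to 26.8 CPM at 72 h and 32.4 to 65.9 CPM at 48 h in S1 tubules (-1.36, SE 0.37; edgeR adjusted p = 0.228). In glomeruli it stood at 28.1, 22.5, 36.4 and 23.6 CPM at 72 h, against 172, 61.8, 124 and 91.6 CPM at 48 h (-2.02, SE 0.32; edgeR adjusted p = 0.0787). Sult1a1 was at -1.62 (SE 0.40; edgeR adjusted p = 0.173) in S1 tubules and -1.54 (SE 0.28; edgeR adjusted p = 0.0992) in glomeruli, without overlap in either. Zbtb16 was at most 0.176 CPM at 72 h and at 1.04 to 4.65 CPM at 48 h in S1 tubules, and at 1.6 to 4.99 CPM at 72 h and 14.9 to 116 CPM at 48 h in glomeruli. Tsc22d3 overlapped between the times in both segments, at -0.98 (SE 0.45) in S1 tubules and -0.63 (SE 0.28) in glomeruli. Nfkbia, called lower in whole kidney, was at 0.20 (SE 0.35) in S1 tubules and 0.24 (SE 0.36) in glomeruli, with overlap. Angptl4 was at 1.38 (SE 0.69) in S1 tubules and 1.14 (SE 0.67) in glomeruli, with 72 h wholly above 48 h in both. Hif3a was at -1.31 (SE 1.19) in S1 tubules with overlap, and at 1.73 (SE 0.73) in glomeruli with 72 h wholly above. Of the glucocorticoid targets measured, 16 of 24 IDs were below 0 in S1 tubules, with a median of -0.78, and 17 of 25 in glomeruli, with a median of -0.30; the medians of all genes were -0.024 and 0.217 in these tissues.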

How the data were processed

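The authors deposited HTSeq read counts per Ensembl gene ID for whole kidney, S1 tubules and glomeruli, with FPKM values for whole kidney and RPKM values for the segments. Reads were trimmed with Trimmomatic 0.32 and aligned with STAR 2.4.0.1, per the submitters' processing notes, which also name SAMtools and HTSeq; the sources used here give no genome build, annotation or strand setting, and reads of overlapping or antisense partners cannot be told apart. Whole kidney libraries were paired-end, from 2 TruSeq stranded kits, and which library had which kit is not given, per the labels' protocols. The deposited FPKM was in a constant ratio to CPM for each gene (largest coefficient of variation 8.37e-09 over 14609 genes).

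The 5 HTSeq summary entries were left out of library sizes; reads with no feature were 22.8% to 28.7% of uniquely aligned reads at 72 h and 20% to 24.9% at 48 h. The 16 libraries of 48 h and 72 h (4 groups) of each tissue were fitted with edgeR 4.0.16 in R 4.3.3 (TMM, filterByExpr with a minimum count of 10, quasi-likelihood F test, Benjamini-Hochberg over all genes tested, threshold 0.05), with contrasts for sham, for nephrectomy and for their difference. The fit was tested on simulated data. Alternatives were other size factors, no filter, DESeq2 1.42.0, limma 3.58.1 with voom and on log2 of FPKM or RPKM plus 1 or 0.1, other sets of libraries, no mitochondrial genes, a replicate block, and each library left out.

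Genes named are the 12 highest and 12 lowest called fold changes among unique symbols with a mean of at least 1 CPM, the 6 smallest p, all measured clock and glucocorticoid members, up to 4 members of other lists and the 3 smallest adjusted p of the difference; the other called genes, and Ehd3, Ipmk and Rgcc, were named after their values were seen. The values of 2 clock list members are not reported here; both count in their lists. Clock activators, clock repressors, clock output, glucocorticoid targets and the other lists, and the comparison itself, were chosen with earlier results of these data known.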

Additional observations from a re-analysis of the deposited data

Results flagged for a closer look

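The 72 h against 48 h change differed between sham and nephrectomy kidneys by a test of the difference (edgeR, adjusted p under 0.05) in 8 named genes, and the values are sham change minus nephrectomy change on the log2 scale. They were -2.59 for Sgk1, -5.20 for Zbtb16, -1.95 for Tsc22d3, -1.10 for Ipmk, -1.16 for Ehd3, -1.84 for Chst3, -1.37 for Btg2 and -1.60 for Rgcc.

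Single libraries stood far from the 3 others of their group, by the gap to the nearest divided by the group's range, in 13 of 310 groups of 4 examined (4.19%), where chance flags about 1 in 20. In whole kidney at 72 h, replicate 3 was high in Havcr1 (9.60 CPM, others 1.93 to 2.04; ratio 0.986) and Chac1 (3.79 CPM, others 0.289 to 0.691; ratio 0.885). Replicate 1 was high in Scd1 (3.64 CPM, ratio 0.913), Hif3a (0.673 CPM, ratio 0.879) and Npas2 (4.92 CPM, ratio 0.841), and replicate 4 in Rgs2 (5.39 CPM, ratio 0.897) and Cyp2c11 (2.09 CPM, ratio 0.854). In whole kidney at 48 h, replicate 1 was high in Scd1 (387 CPM, others 6.10 to 47.7; ratio 0.891) and low in Aoah (6.65 CPM, others 6.86 to 6.88; ratio 0.913) and Celsr2 (52.7 CPM, ratio 0.833), and replicate 2 was low in Gadd45a (30.3 CPM, ratio 0.851). In glomeruli, Nfil3 was high in replicate 2 of 72 h (11.8 CPM, ratio 0.836) and Errfi1 in replicate 1 of 48 h (127 CPM, others 27.4 to 40.5; ratio 0.868).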

How the results depend on the processing

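The sham comparison called 42 genes, and the count ran from 2 to 63 when 1 library was left out; it was 376 with DESeq2, 65 with limma voom, 11 with limma on log2 of FPKM plus 1 and again 11 with FPKM plus 0.1, 4 with all 24 libraries and 23 with the 8 libraries alone. Other size factors gave 47, no filter 61 and no mitochondrial genes 55. The 7 glucocorticoid members called became 13 with DESeq2 and 3 with all 24 libraries, and 2 to 8 when 1 library was left out. The 82 nephrectomy calls became 335 with DESeq2, 385 with limma voom, 24 and 15 on FPKM plus 1 and plus 0.1, 7 with all 24 libraries, and 9 to 105 when 1 library was left out. The 9 differences of the changes became 17 with no filter, 97 with DESeq2, 26 with limma voom, 2 with either FPKM setting, 3 with all 24 libraries, and 5 to 31 when 1 library was left out. In S1 tubules the 0 calls became 7 with no filter, 335 with DESeq2, 128 with limma voom, 15 with the 8 libraries alone and 0 to 26 when 1 library was left out. In glomeruli the 0 calls became 1 with no filter, 698 with DESeq2, 4390 with limma voom, 1 on RPKM plus 1, 27 with the 8 libraries alone and 0 to 1 when 1 library was left out. The cause of these shifts was not tested.

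In whole kidney, replicate numbers did not pair the 72 h with the 48 h sham samples, since the correlation of same-numbered whole kidney samples exceeded 0.1 for 1 number of 4 (0.0898, 0.121, -0.206 and 0.0695), and 2 of the 4 numbers correlated best with their own. With the replicate block, the calls were 18 in sham (14 shared with the 42), 5 of the glucocorticoid members, 39 in nephrectomy, 7 differences of the changes, 1 in S1 tubules and 2 in glomeruli.

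FPKM values carry no TMM scaling and moved the median of all genes to 0.123 (plus 1) and 0.177 (plus 0.1), against 0.005. On that unshifted scale these uncalled genes lay at or above 0, with FPKM plus 1 first and plus 0.1 second; measured against the shift, none but Csnk1d and, with plus 0.1, Ciart lay above it: Rbm3 0.00 and 0.01, Ampd3 0.04 and 0.04, Coq10b 0.01 and 0.01, Ciart 0.04 and 0.30, Clock 0.12 and 0.13, Fam107a 0.10 and 0.11, Cry2 0.10 and 0.12, Cirbp 0.11 and 0.12, Cdkn1a 0.04 and 0.05, Csnk1d 0.17 and 0.18. With limma voom, Ciart was at 0.10 and Csnk1d at 0.01. Leaving out 1 library turned the sign of Cirbp (-0.17 to 0.07), Avpr2 (-0.07 to 0.13), Cry2 (-0.20 to 0.05), Per3 (-0.09 to 0.19), Csnk1d (-0.05 to 0.05), Ciart (-0.87 to 0.36), Mt2A (-0.08 to 0.25), Clock (-0.13 to 0.03), Pdk4 (-0.07 to 0.22) and Avpr1a (-0.02 to 0.18). The glucocorticoid median was -0.54 and -0.67 on the FPKM settings and -0.98 to -0.74 when 1 library was left out. No called gene turned its sign under any alternative run. Low counts limit Fibin, Trhde, Igj, Hif3a and Tspan4, and the spread between libraries limits the S1 and glomerular comparisons.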

Other observations

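Cyp2c11, a cytochrome P450 known as male-specific in rat liver, was outside the naming rule and is given here after its values were seen. It stood at 0.0917, 0.361, 0.0643 and 2.09 CPM at 72 h, against 3.78, 31.1, 15.8 and 11.4 CPM at 48 h, with 0.107, 0.694, 0 and 7.78 CPM at 24 h. The log2 fold change was -4.52 (SE 0.93; edgeR adjusted p = 0.0505), so it did not pass the threshold. Counts can be shared between Cyp2c genes.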
